A study of Mus musculus with 14 samples.

Results

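The cerebral cortex of mice without the miR-29 clusters in their neural lineage was compared with wild-type cortex at postnatal day 40, gene by gene. The libraries were chosen by their column names, 3 labelled as knockouts (miR29Nestin) and 3 as wild type (miR29WT), and they are 6 of the 14 samples of the series. The study asks what the loss of the miR-29 family changes in the maturing brain. In miR29Nestin mice the miR-29ab1 and miR-29b2c alleles are floxed at both loci and were deleted by Nestin-Cre, a recombinase expressed in neural progenitors, so neurons, astrocytes and oligodendrocytes descend from recombined cells, while microglia, blood vessels and meninges largely do not. The floxed alleles were made from 129/SvEv DNA in 129/SvEv-B6 embryonic stem cells. The labels do not say whether the miR29WT mice carry floxed alleles or Cre, nor the sex of any mouse. By Y-linked genes 1 of 3 miR29Nestin and 2 of 3 miR29WT libraries came from males. Whole cortex was sequenced, so fewer cells of a type and less RNA per cell cannot be told apart. Nothing says outright that the 3 libraries of a group came from separate animals, so the p-values measure the spread between these samples.

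MicroRNAs of the miR-29 family are short RNAs that guide a silencing complex to messenger RNAs, mostly through pairing of bases 2 to 8 (the seed) with the 3′ UTR, after which the transcript is destabilised or less translated. The family is scarce in fetal brain and abundant in the mature brain, and its classical targets are collagens, other matrix genes and DNA methylation enzymes. The pair of clusters produces 3 mature forms, which RefSeq (GRCm38.p6) gives as follows, with the seed in capitals. They are shown because the seed is the same in all of them, so a single complementary motif serves for the whole family.
miR-29a-3p: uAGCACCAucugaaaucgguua
miR-29b-3p: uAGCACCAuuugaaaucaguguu
miR-29c-3p: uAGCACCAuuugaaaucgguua

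The complement of the seed, TGGTGCT, was searched on the sense strand of the longest annotated 3′ UTR of each gene (GENCODE M21, GRCm38). A match followed by A (TGGTGCTA) is the 8mer, the form that pairs best. The windows below are 1 match each of genes whose transcripts were higher or lower in miR29Nestin, with the match in capitals, and positions are counted from the first base after the stop codon. The first 7 belong to genes that rose and the last to a gene that fell although it carries 4 matches.
Igsf9b, 4th of 8 matches, position 7768, chr9:27353746-27353752, plus strand: ttagctggcgtctccTGGTGCTA
Tet3, 5th of 8 matches, position 3699, chr6:83364337-83364343, minus strand: aaatagtctaataaaTGGTGCTA
Bdh1, 2nd of 4 matches, position 797, chr16:31457891-31457897, plus strand: tgcctaggacaggatTGGTGCTA
Col26a1, 4th of 4 matches, position 1156, chr5:136741884-136741890, minus strand: catccctaaagttctTGGTGCTt
Adamts17, 2nd of 3 matches, position 2237, chr7:67152303-67152309, plus strand: tgtctctcagtcttaTGGTGCTA
Zfp651, 1st of 3 matches, position 697, chr9:121768466-121768472, plus strand: tagttcagggtttcaTGGTGCTA
Ccdc28b, single match, position 67, chr4:129619319-129619325, minus strand: gattcggaagcccctTGGTGCTA
Col5a1, 2nd of 4 matches, position 1018, chr2:28038034-28038040, plus strand: tacacttgtctcttgTGGTGCTA

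The 6 libraries held 9.19 to 14.4 M reads in genes, and each detected 16667 to 17189 genes. Libraries of a group correlated at 0.9959 to 0.9974 over genes and libraries of different groups at 0.9922 to 0.9944. Mature microRNAs carry no poly(A) tail, and the miR-29 genes were listed at 0 in all 6 libraries, so they do not check the labels. Transcripts around both clusters did differ: Lncpint, a long non-coding RNA beside the chromosome 6 cluster, stood at 390, 468 and 436 normalised counts in miR29Nestin and at 0.750, 0 and 4.68 in miR29WT. A330023F24Rik, which runs over the chromosome 1 cluster, stood at 8313, 10031 and 9992 against 4119, 1230 and 1143, with miR29WT library 1 apart from its group; under a robust prior it no longer passed (limma adjusted p = 0.0627).

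Of 12014 genes tested with limma, 1084 (9.02%) were higher and 1205 (10.03%) lower in miR29Nestin at an adjusted p under 0.05, together 2289 or 19.1%. A normalised count here is the read count of a gene after division by the size factor of its library, and a log2 difference is the difference of group means on the variance-stabilised scale on which the authors deposited the values, which compresses changes of weakly expressed genes. Most changes were modest. The median ratio of group means was 1.34-fold for genes called higher and 1.30-fold for genes called lower, 291 rises and 239 falls reached 1.5-fold, and 82 and 34 reached 2-fold. The 3 libraries of a group lay wholly above those of the other in 4483 of all 12014 tested genes (37.3%) and in 2269 of the 2289 called genes, where the call nearly fixes this. The median log2 difference of all tested genes was -0.01. The count of called genes fell to 1474 without miR29Nestin library 2, to 1384 without miR29WT library 2 and to 1419 without miR29WT library 3.

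**Figure D1:**
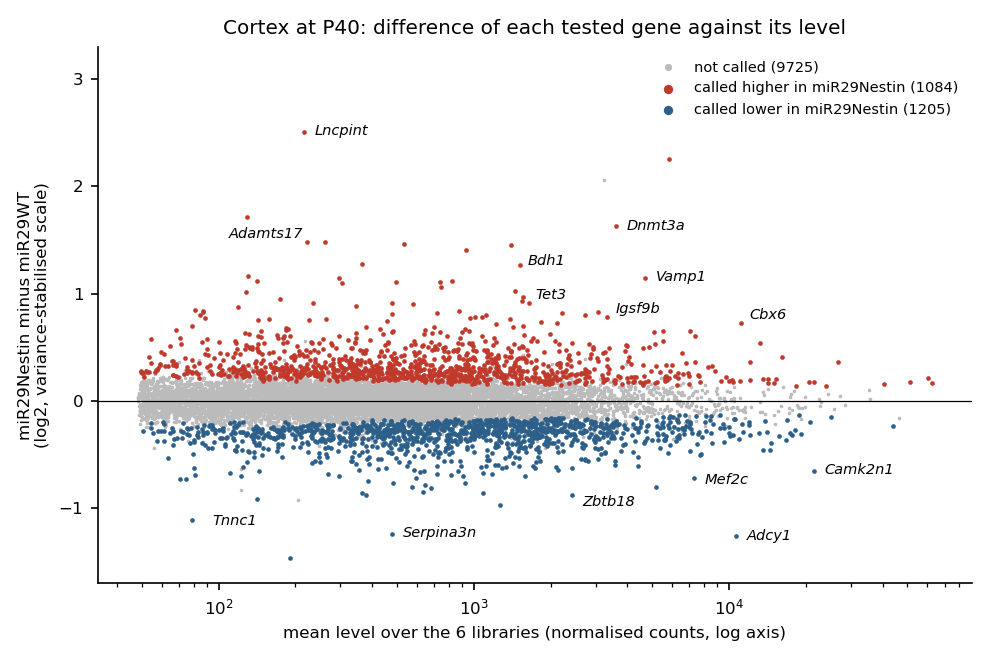
Each point is 1 of the 12014 tested genes, with its mean level over the 6 libraries in normalised counts on a log axis and its log2 difference, miR29Nestin minus miR29WT, on the vertical axis. Called genes are coloured (1084 higher, 1205 lower) and occur at all levels, from Tnnc1 and Adamts17 at low counts to Camk2n1 and Cbx6 at high counts.

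The share of genes that rose went up with the number of seed matches in the 3′ UTR and with the length of the match. Among the 11704 tested genes with a 3′ UTR sequence, 1055 (9.01%) rose and 1187 (10.1%) fell, 19.2% in all. Of 9758 genes with 0 matches 7.37% rose, of 1628 with 1 match 15.4%, of 253 with 2 matches 22.5% and of 65 with 3 or more 43.1%. The median log2 difference went from -0.01 with 0 matches through 0.02 and 0.05 to 0.13 with 3 or more. The share that fell moved less, at 10.5% with 0 matches, 8.78% with 1, 6.32% with 2 and 12.3% with 3 or more. These shares describe genes measured in the same 6 libraries and carry no test.

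Sorted by the best match in the UTR, 120 of 422 genes with an 8mer rose (28.4%) and 25 fell. The shares of rises were 14.2% of 1524 genes with TGGTGCT without the A, 17.9% of 425 genes with the shifted 7-base match GGTGCTA, 9.92% of 1824 with only the 6-base core GGTGCT, and 6.15% of 7509 with no match of any kind. The order by number of matches also held among genes with a UTR of 1500 to 4000 nucleotides. There 7.13% of genes with 0 matches rose, 14.4% with 1 and 28.0% with 2 or more. The types of match were not compared within this range of UTR length. For comparison, matches to the seeds of 5 other brain microRNAs, let-7c-5p (CTACCTC), miR-9-5p (ACCAAAG), miR-128-3p (CACTGTG), miR-132-3p (GACTGTT) and miR-138-5p (CACCAGC), went with shares of rises between 8.04 and 10.5%, near the 9.01% of all genes with a UTR, and with shares of falls between 12.6 and 13.4%. Most changed genes lacked TGGTGCT. Of the 1055 rises 336 (31.8%) carried TGGTGCT and 719 did not, against 167 of 1187 falls (14.1%) and 1946 of all 11704 genes (16.6%). Among the 719, the best match was GGTGCTA in 76 and only GGTGCT in 181, and 462 had no match of any kind. The number of rises with 0 matches dropped to 441 without miR29Nestin library 2, to 421 without miR29WT library 2 and to 437 without miR29WT library 3.

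**Figure D2:**
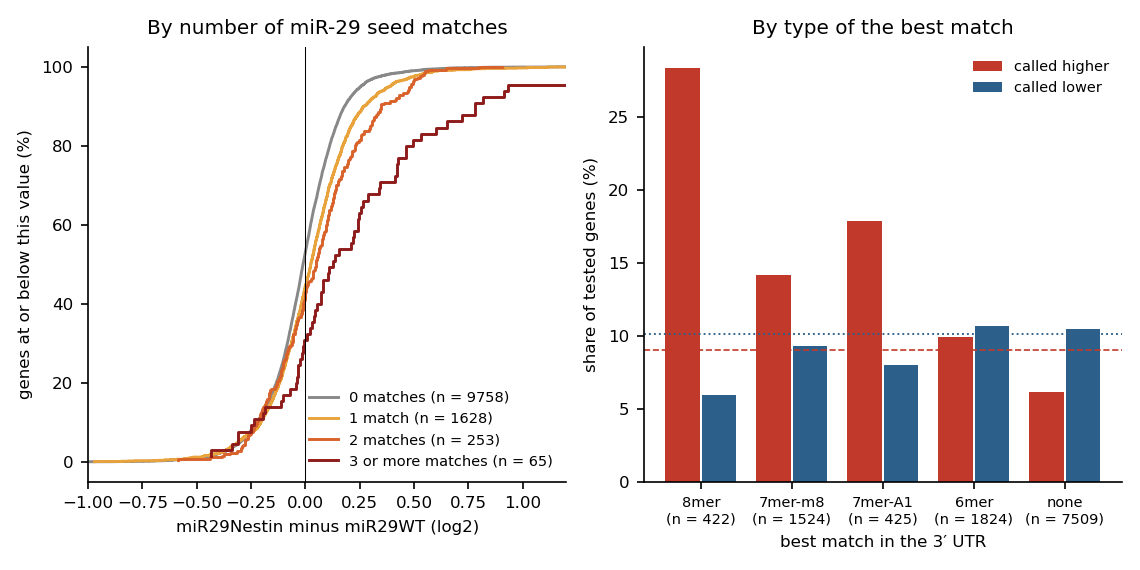
The left panel gives, for genes grouped by the number of TGGTGCT matches, the cumulative share of genes (%) at or below each log2 difference; the curve of the 65 genes with 3 or more matches lies to the right. The right panel gives the share of tested genes called higher and lower by the type of the best match, from 28.4% higher with an 8mer to 6.15% with no match, with lines at the 9.01% (dashed) and 10.1% (dotted) of all genes with a UTR.

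The genes richest in matches differed widely in how far they rose. Igsf9b, an adhesion protein of inhibitory synapses on interneurons (chromosome 9, 27299204 to 27357546), carries 8 matches in a UTR of 11568 nucleotides. It stood at 4016, 4440 and 4304 normalised counts in miR29Nestin and at 2291, 2393 and 2501 in miR29WT, a 1.78-fold rise (log2 difference 0.78, SE 0.05, limma adjusted p = 8.92e-06). Tet3, an enzyme that oxidises methylated cytosine, also has 8, and its libraries had 2039, 2247 and 2340 against 1059, 1181 and 1026 counts. Neither gene showed any overlap between the groups. Its relative Tet1, with 7 matches, stood at 214, 263 and 313 against 135, 157 and 160 counts (log2 difference 0.46, adjusted p = 0.00434). Zfp41, a zinc finger protein with 4 matches, was 2.11-fold higher, at 279, 221 and 279 against 135, 118 and 117 counts. Sh3pxd2a, the podosome scaffold Tks5, also with 4, was 1.45-fold higher (0.46, adjusted p = 0.00104). By contrast Agpat5, a lipid acyltransferase with 6 matches, and Sestd1, with 5, had log2 differences of only 0.25 each. The call of Agpat5 (adjusted p = 0.0270) was lost without miR29Nestin library 2 (0.108) and without miR29WT library 1 (0.0635), 2 (0.0512) or 3 (0.101), and that of Sestd1 (0.0145) without miR29Nestin library 2 (0.0508) or miR29WT library 2 (0.0706).

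Among genes with 3 or more matches the largest log2 differences were those of Dnmt3a with 5, Bdh1 and Col26a1 with 4 each, and Adamts17 with 3. Bdh1, the mitochondrial enzyme that interconverts the ketone bodies, had 2292, 2114 and 2216 normalised counts in miR29Nestin and 890, 779 and 778 in miR29WT. Col26a1, a collagen, had 911, 791 and 855 against 225, 228 and 173. Adamts17, a secreted metalloprotease (chromosome 7, 66839735 to 67153171), had 510, 425 and 406 against 52.6, 81.6 and 86.4, a 6.08-fold rise (log2 difference 1.48, SE 0.09, limma adjusted p = 5.49e-06). In each of these genes the lowest miR29Nestin library had more than 2 times the counts of the highest miR29WT library. Zfp651, a zinc finger protein with 3 matches, of which 2 are 8mers, had 2936, 2868 and 2821 against 1509, 1524 and 1621 counts (1.85-fold). A single match could go with as large a change: Ccdc28b, which modifies ciliary disease, carries 1 8mer in a UTR of 118 nucleotides and had 642, 545 and 552 against 168, 166 and 119 counts (3.84-fold).

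The genes with 3 or more matches that were lower in miR29Nestin numbered 8. Col5a1, a fibrillar collagen with 4 matches of which 2 are 8mers, stood at 525, 515 and 482 normalised counts against 616, 695 and 746 (log2 difference -0.34, limma adjusted p = 0.00604). Nav1, a microtubule-guiding protein of neurons with 4 matches, stood at 1506, 1510 and 1491 against 1767, 1989 and 1976 (-0.31, adjusted p = 0.00325). Rgs8, a brake on G protein signalling with 3 matches, had a log2 difference of -0.44 and the repressor Hic2, also with 3, one of -0.31. The falls of Ttbk1, Epha10, Nlgn1 and Dusp18 were smaller, between -0.25 and -0.19, and these calls were less stable. All 4 were lost without miR29WT library 2 (limma adjusted p = 0.0673 to 0.101), and those of Epha10, Nlgn1 and Dusp18 also without miR29Nestin library 2 (0.109 to 0.134) or miR29WT library 3 (0.137 to 0.167). Leaving out miR29Nestin library 1 ended the calls of Nlgn1 and Dusp18, miR29Nestin library 3 that of Epha10, and miR29WT library 1 those of Epha10 and Dusp18. A match in the longest UTR thus did not fix the direction of a gene.

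Several of the firmest rises had 0 matches to TGGTGCT. This count leaves out the forms GGTGCTA and GGTGCT, which are not given here for single genes. Vamp1, the synaptobrevin of fast-releasing terminals (chromosome 6, 125215551 to 125245964), had 6707, 6317 and 6640 normalised counts in miR29Nestin against 3016, 2554 and 3018 in miR29WT (2.29-fold, log2 difference 1.15, limma adjusted p = 2.94e-06). Fstl1, a secreted glycoprotein that binds BMP ligands, had 1010, 1059 and 1115 against 382, 451 and 428 (2.53-fold). Cbx6, a chromodomain subunit of Polycomb repressive complex 1 that is abundant in neurons, had 13982, 13746 and 14103 against 8875, 8188 and 8054 (1.67-fold). The libraries within a group lay close together in all of these. Ttyh3, a membrane protein of the tweety family, was nearly constant within groups, at 6237, 6234 and 6228 against 3891, 3913 and 3972 counts. Some weakly expressed genes rose by more: Endou, a calcium-dependent RNA endonuclease with 1 match, from 44.0 ± 5.08 to 211 ± 23.9 counts (SD, n = 3 each), and Gpnmb, a transmembrane glycoprotein of lysosome-rich cells, from 27.9 ± 6.35 to 134 ± 12.7. Etnppl, an astrocyte enzyme that breaks down phosphoethanolamine, stood at 146, 295 and 268 against 14.3, 57.0 and 66.6 counts, with a wide spread in both groups (adjusted p = 0.00148).

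Of the 15 falls with the smallest p-values 13 had 0 matches. This is near the background, since only 14.1% of all 1187 falls with a 3′ UTR sequence carried a match. Of all 11704 tested genes with such a sequence 16.6% did. Adcy1, the calcium-stimulated adenylyl cyclase, stood at 5973, 6669 and 6003 normalised counts in miR29Nestin and at 14631, 14632 and 16278 in miR29WT (2.44-fold lower, log2 difference -1.26, SE 0.06, limma adjusted p = 7.67e-07). Camk2n1, an inhibitor protein of the kinase CaMKII, was the most abundant of them, at 17732, 16506 and 16064 against 28191, 25728 and 25356. Diras2, a small GTPase of neurons, stood at 3693, 3954 and 3553 against 6756, 6488 and 6697. The groups did not overlap in any of these. Zfp365, which acts in neurite and oligodendrocyte maturation, was 1.43-fold lower and Apba1, the Munc18-binding adaptor Mint1, 1.49-fold lower. Hn1 stood at 521, 477 and 539 against 914, 961 and 904 counts. Among weakly expressed genes, Rlbp1, a retinaldehyde-binding protein, stood at 67.4, 59.8 and 67.0 against 189, 172 and 180, and Vill, a villin-like actin binder, at 28.8, 17.8 and 38.1 against 96.0, 120 and 121. The activity-induced transcription factor Egr2 stood at 43.7, 20.2 and 21.3 against 103, 204 and 55.0 counts; its call (adjusted p = 0.0163) was lost with a robust variance prior (0.0853) and without miR29Nestin library 2 (0.0697).

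**Figure D3:**
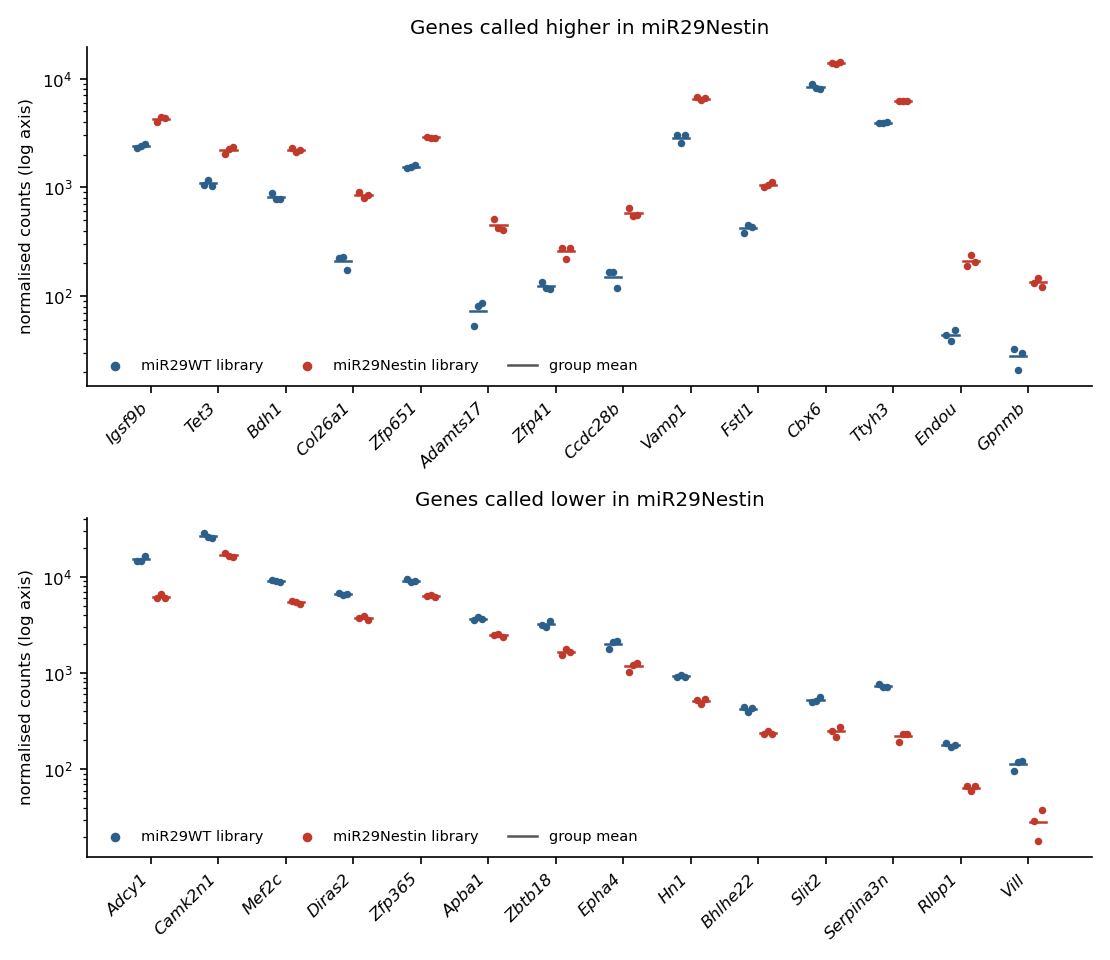
Each point is the level of a gene in 1 library in normalised counts on a log axis, with miR29WT on the left and miR29Nestin on the right of each pair and a bar at the group mean. In all 28 genes the 3 libraries of a group lie wholly on 1 side of the other group, for example Adamts17 at 406 to 510 against 52.6 to 86.4 counts.

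Many transcription factors of cortical neurons fell. Of 37 tested members of that list 18 fell and 2 rose (48.6 and 5.41%, against 10.03 and 9.02% of all tested genes), and the median was -0.21. List counts of 2 or fewer, here and below, shifted by at most 3 genes over the alternative fits, apart from the falls of striatal neuron genes, which shifted by 6. Mef2c, an activity-regulated factor that shapes synapses and neuronal maturation (chromosome 13, 83504034 to 83667080), stood at 5603, 5519 and 5240 normalised counts against 9334, 9000 and 8913 (log2 difference -0.72, SE 0.04, limma adjusted p = 5.85e-06). Zbtb18, a repressor needed for pyramidal neuron development, stood at 1545, 1778 and 1663 against 3136, 3017 and 3448. Bhlhe22, which patterns cortical areas, stood at 231, 248 and 233 against 442, 397 and 431. In all of these the groups were well apart. Satb1 (-0.44), Sox5 (-0.53) and Mef2a (-0.48) also fell. Nfia, a factor of gliogenesis with 3 matches, was 1 of the 2 that rose, at 697, 750 and 810 against 545, 540 and 474 counts (0.42, adjusted p = 0.00177). The summed level of 4 excitatory neuron markers (Slc17a7, Camk2a, Neurod6 and Tbr1) was 60617 to 64359 normalised counts in miR29Nestin and 68236 to 78906 in miR29WT, with 2 of 4 called lower, of which Tbr1 lost its call without miR29WT library 1 (adjusted p = 0.0513). Its part in the lower neuronal lists was not tested.

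Axon guidance genes, which steer growing axons and later shape synapses, also included many falls. Of 51 tested members 22 fell and 3 rose (43.1 and 5.88%), with a median of -0.19. The secreted ligand Slit2 (chromosome 5, 47983138 to 48307733) stood at 253, 215 and 278 normalised counts against 501, 512 and 558 (2.11-fold lower, limma adjusted p = 7.94e-05), and the SLIT receptor family member Robo3 at 274, 212 and 177 against 588, 458 and 558. The semaphorin receptor Plxna2 stood at 1506, 1685 and 1678 against 2434, 2502 and 2821. Ligands and receptors were thus both among the falls. The receptor tyrosine kinases Epha4 (-0.70) and Ephb2 (-0.50), which bind ephrins, fell too, whereas the A-class ephrins Efna2 (0.48) and Efna5 (0.41), each with 1 match, rose. Efna2 stood at 169, 172 and 167 against 79.1, 97.3 and 79.9 counts. The number of falls was 14 without miR29WT library 2 and 12 without miR29WT library 3. Cadherins and protocadherins, which hold neurons together by like-to-like binding, followed with 11 falls and 2 rises of 29 tested. These were 37.9 and 6.9% (median -0.15), against 10.03 and 9.02% of all tested genes. The falls became 7 without miR29Nestin library 1 or miR29WT library 2. Cdh11 stood at 428, 529 and 499 against 766, 767 and 765 counts, and the giant cadherin Fat3 had a log2 difference of -0.60.

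Second-messenger genes changed mostly downward. Of 26 tested cAMP signalling genes 8 fell, Adcy1 among them, and 1 rose (30.8 and 3.85%, against 10.03 and 9.02% of all tested genes, median -0.10). The 8 falls became 5 without miR29Nestin library 2 and 4 without miR29WT library 2 or 3. The regulatory subunits of protein kinase A, Prkar2b (-0.47) and Prkar1b (-0.30), and the olfactory-type G protein subunit Gnal (-0.56) fell, while the catalytic subunit Prkaca was the member that rose (0.30). Of 26 calcium and calmodulin genes 10 fell and 3 rose (38.5 and 11.5%, median -0.18), with 6 falls without miR29WT library 2 and 1 rise without miR29Nestin library 2 or miR29WT library 2. The calcium pump Atp2b4 stood at 2745, 2927 and 2861 normalised counts against 3943, 4828 and 4125, and the calcium sensor hippocalcin (Hpca) at 5893, 6109 and 7351 against 8670, 9257 and 9477.

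Of 45 tested potassium channel genes 16 fell and 6 rose (35.6 and 13.3%, median -0.11). The number of falls depended on single libraries, at 7 without miR29Nestin library 1 or 2, 9 without miR29WT library 2 and 5 without miR29WT library 3, and the 6 rises became 10 with the replicate number as a block. Kcna1, the Kv1.1 channel of axons, stood at 5541, 5724 and 5956 normalised counts against 4054, 3543 and 4399 (log2 difference 0.51, limma adjusted p = 6.58e-04), and the channel subunit Kcnab2 had a log2 difference of 0.65. On the other side the silent subunit Kcns2 stood at 272, 336 and 336 against 521, 526 and 540 counts, and the A-type channel Kcnd2 had a log2 difference of -0.44 (adjusted p = 0.00708).

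Genes of synaptic vesicle release held both clear falls and the strong rise of Vamp1. Of 37 tested members 12 fell and 2 rose (32.4 and 5.41%, median -0.04). The scaffolds of the active zone, Pclo (-0.54), Bsn (-0.40) and Rims1 (-0.41), fell with the calcium sensor Doc2a (452, 409 and 391 normalised counts against 754, 777 and 707), the priming factors Unc13a (-0.32) and Unc13c (-0.56) and the calcium sensor Syt7 (-0.36). The 2 rises were Vamp1 and Cplx1, a complexin that clamps release (0.20, limma adjusted p = 0.00625). Tubulins and microtubule-associated proteins moved both ways, with 9 falls and 5 rises of 28 tested (32.1 and 17.9%, median -0.07). Over all tested genes the shares were 10.03 and 9.02%. The 5 rises became 2 without miR29Nestin library 2 or miR29WT library 2, and 3 without miR29Nestin library 3 or miR29WT library 3. Map1a stood at 14989, 14187 and 14600 against 19500, 17951 and 19166 counts. Tubb2b fell (-0.65) while Tubb2a rose (0.34); reads of these near-identical copies can be split wrongly, so their values are uncertain.

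Genes of parvalbumin interneurons, the fast-spiking inhibitory cells whose maturation is a late step of cortical development, were more often among the rises than among the falls. Of 26 tested members of the list 11 rose and 3 fell (42.3 and 11.5%), with a median of 0.20; the 3 falls became 1 without miR29Nestin library 2 or miR29WT library 1 or 3. Pvalb itself, the calcium buffer that names the cells (chromosome 15, 78191114 to 78206400), stood at 1470, 1331 and 1433 normalised counts against 816, 671 and 756 (1.89-fold higher, log2 difference 0.78, SE 0.07, limma adjusted p = 4.29e-05). Cox6a2, a cytochrome oxidase subunit that in cortex marks these cells, stood at 163, 141 and 105 against 27.6, 36.7 and 32.6. Both had groups far apart. Vamp1 and Kcna1, given above, belong to the list too, as do the heavy neurofilament Nefh (1533, 1534 and 1918 against 1073, 1137 and 1233 counts) and Hapln1, a link protein of perineuronal nets (323, 386 and 360 against 265, 234 and 210). Of the enzymes that make GABA, Gad1 rose slightly (4803, 4992 and 5359 against 4245, 4190 and 4345, log2 difference 0.23) and Gad2 fell (1189, 1535 and 1600 against 1992, 2167 and 2239, -0.52). The neuropeptide Sst, which marks another interneuron class, fell (1595, 2152 and 1557 against 2312, 2646 and 2575, -0.48, adjusted p = 0.00781). The summed level of 5 general inhibitory neuron markers overlapped between the groups, at 7728 to 8822 and 7792 to 8364 counts.

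Sst was 1 of 5 neuropeptide genes that fell of 30 tested, with 1 rise (median -0.06). The shares were 16.7 and 3.33%, against 10.03 and 9.02% of all tested genes. The receptor for corticotropin-releasing hormone, Crhr1, stood at 334, 284 and 272 normalised counts against 577, 539 and 525 (1.84-fold lower, limma adjusted p = 1.57e-04). Adcyap1, which encodes the peptide PACAP, stood at 142, 207 and 126 against 368, 292 and 260. Of 19 monoamine and acetylcholine receptors 4 rose and 1 fell (21.1 and 5.26%). The 4 rises became 2 without miR29Nestin library 2, and the fall was the muscarinic receptor Chrm3 (-0.46).

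Many genes on the list of glucocorticoid and thyroid hormone response rose, while the receptor genes Nr3c1 and Thrb fell. Of 21 tested members of that list 10 rose and 4 fell (47.6 and 19.0%), with a median of 0.15. Tsc22d3, the glucocorticoid-induced leucine zipper (chromosome X, 140539528 to 140600659), stood at 2010, 1933 and 2084 normalised counts against 821, 868 and 1002 (2.24-fold higher, log2 difference 1.03, SE 0.07, limma adjusted p = 6.07e-06). The metallothionein Mt1, which glucocorticoids and metals induce, stood at 2491, 2047 and 2477 against 1375, 1289 and 1325, and the kinase Sgk1 at 1268, 1237 and 1489 against 645, 972 and 841. In each of them all miR29Nestin libraries were higher. Cdkn1a, the cell-cycle inhibitor p21, had a log2 difference of 0.59 and Mt2 one of 0.65. Dio2, the enzyme of astrocytes that activates thyroid hormone and carries 2 matches, stood at 1986, 2148 and 2286 against 1428, 1262 and 1481 counts. The glucocorticoid receptor Nr3c1 (881, 964 and 1002 against 1242, 1208 and 1138) and the thyroid hormone receptor Thrb (-0.41) fell, as did Nrgn (-0.30), a neuronal target of thyroid hormone. Fkbp5, a chaperone that the glucocorticoid receptor induces, was called (0.66, adjusted p = 0.0349) but lost the call in 6 of 15 alternative fits, among them those without miR29Nestin library 2 (0.0688) or 3 (0.0863) and without miR29WT library 1 (0.0996) or 2 (0.119).

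Clock genes, which drive daily rhythms, had 7 rises. Of 19 tested members 7 rose and 1 fell (36.8 and 5.26%, median 0.15). Per3, which has 3 matches, stood at 940, 1160 and 1192 normalised counts against 671, 759 and 883 (log2 difference 0.43, limma adjusted p = 0.00984), and Rora, with 2, at 1054, 1174 and 1298 against 912, 902 and 926. The output factor Dbp rose by 0.27 on the log2 scale. Arntl (Bmal1), whose rhythm runs opposite to that of the Per genes and Dbp, was the member that fell, at 376, 408 and 381 against 544, 484 and 475 counts (-0.27, adjusted p = 0.0135). The labels do not give the hour of tissue collection.

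**Figure D4:**
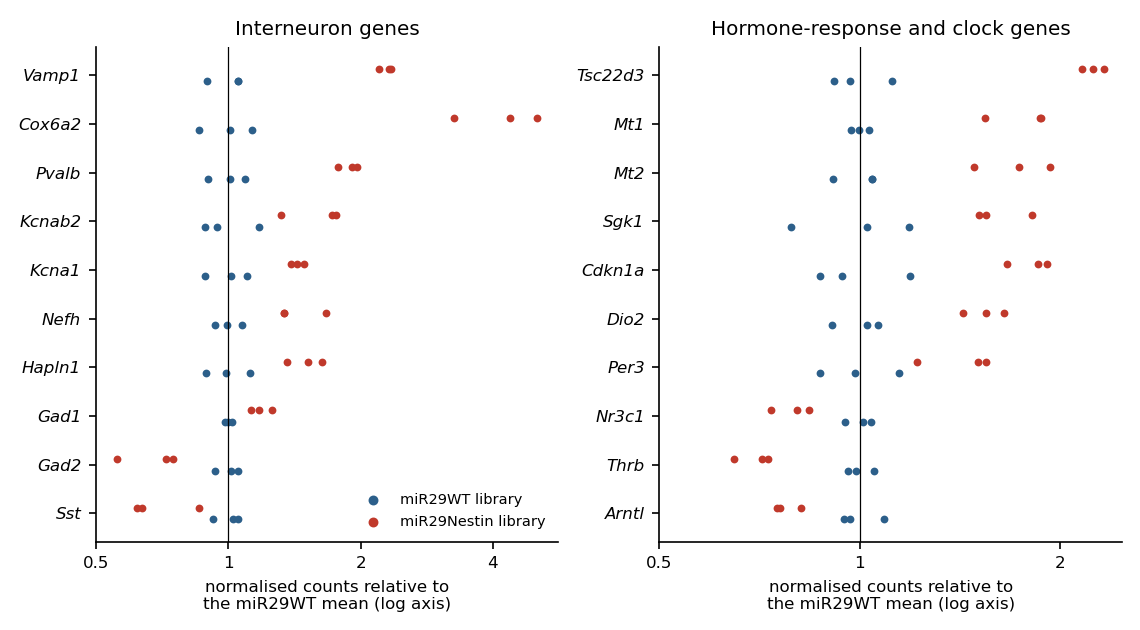
Each point is 1 library, as its normalised counts divided by the miR29WT mean of the gene, on log axes. Vamp1, Cox6a2 and Tsc22d3 lie above a ratio of 2 in every miR29Nestin library, while Gad2, Sst, Nr3c1, Thrb and Arntl lie below 1 in all 3 miR29Nestin libraries.

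Of 27 tested genes of fatty acid synthesis and lipid storage 10 rose and 1 fell (37.0 and 3.70%, median 0.11; 6 rises without miR29WT library 2). Gpam, the first enzyme of glycerolipid synthesis, stood at 644, 716 and 740 normalised counts against 440, 402 and 466 (log2 difference 0.52, limma adjusted p = 4.11e-04). The elongases Elovl5 (0.43) and Elovl4 (0.41) rose as well. All 6 called genes of the citric acid cycle, of 19 tested, were rises (31.6%, median 0.10). The 6 rises became 3 without miR29Nestin library 2 or miR29WT library 2 or 3. Among the 6 were Ogdh (5132, 5094 and 5186 against 3837, 4030 and 4235 counts) and Idh2 (0.40). In the use of ketone bodies Oxct1, which activates acetoacetate in mitochondria and has 1 match, rose beside Bdh1, at 6420, 5795 and 6034 against 4443, 4002 and 4018; in all 3 of 31 ketone and fatty acid oxidation genes rose (5 with the replicate block) and 1 fell, a share of rises (9.68%) near that of all genes. Glycolysis genes had 4 rises and 3 falls of 24 (16.7 and 12.5%, against 9.02 and 10.03% of all tested genes). The neuronal glucose transporter Slc2a3 was 1.45-fold higher and lactate dehydrogenase B (Ldhb) 1.29-fold higher, while the 3 falls became 1 without any single miR29WT library and 5 with the replicate block.

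Lysosome and autophagy genes gave 7 rises and 0 falls of 32 tested (21.9%, median 0.12; 4 rises without miR29WT library 2 or 3 or without the mean-variance trend). The cathepsin Ctsf, with 1 match, stood at 1098, 1017 and 1058 normalised counts against 701, 605 and 720, the autophagosome protein Map1lc3b at 3619, 3361 and 3051 against 2635, 2319 and 2314, and progranulin (Grn) at 893, 881 and 861 against 692, 681 and 698. The proton pump that acidifies these compartments had 4 rises of 17 (23.5%, against 9.02% of all tested genes). The 4 rises became 2 without miR29Nestin library 2 or miR29WT library 1, and 1 without miR29WT library 3. They became 2 without the mean-variance trend and 7 with the replicate block. Of 52 cytosolic ribosomal protein genes 0 rose by limma and 1 fell (0 and 5 at an unadjusted p under 0.05). Of 37 mitochondrial ribosomal genes 0 were called by limma (median 0.05; 8 higher and 1 lower at an unadjusted p under 0.05, and 3 rises with the replicate block). Of 31 proteasome genes 3 rose and 0 fell by limma (median 0.12), a share of rises (9.68%) near the 9.02% of all tested genes. At an unadjusted p under 0.05, 15 were higher and 0 lower, where 3962 of all 12014 tested genes differed in either direction. The 3 rises became 7 without miR29Nestin library 3, with the replicate block or with sex as a covariate, and 5 with a robust variance prior.

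Extracellular and growth factor genes included further matches. Of 28 tested growth factors and receptors 9 rose and 6 fell (32.1 and 21.4%, median 0.05; 3 falls without miR29WT library 3). Igf1, with 2 matches, stood at 183, 215 and 211 normalised counts against 106, 93.4 and 97.1 (2.05-fold higher, limma adjusted p = 3.43e-04). The binding proteins Igfbp4, also with 2 matches (1712, 1968 and 1713 against 1215, 1216 and 1221), and Igfbp5, with 0 (4909, 4837 and 4459 against 3303, 3006 and 3453), rose too. Igf2 stood at 1274, 1215 and 996 against 389, 678 and 688 counts. Igf2 is made mainly by meninges and vessels, and 6 leptomeningeal markers, of which it is 1, summed to 1406 to 1857 counts in miR29Nestin and 654 to 1090 in miR29WT; 3 of 5 tested were called higher, and Dcn was not (-0.07, adjusted p = 0.716). Of these markers 0 were at 0 in all libraries, and Lum lay below the filter. The part of meningeal tissue in the rises of matrix genes was not tested. The neurotrophin receptor Ntrk3 (-0.36) and the neuronal factor Fgf13 (-0.32) fell.

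Of 27 matrix proteases and inhibitors 5 rose and 4 fell (18.5 and 14.8%); the 4 falls became 2 without miR29Nestin library 1, 1 without miR29Nestin library 2 or miR29WT library 2 or 3, and 2 without the mean-variance trend. Besides Adamts17 the inhibitor Timp4 rose (437, 415 and 459 normalised counts against 268, 244 and 236), as did the membrane-bound protease Mmp14 (0.54). Adam19 fell although it carries 2 matches (270, 282 and 287 against 486, 506 and 505, limma adjusted p = 7.94e-05). Among laminins and proteoglycans 4 of 24 rose and 3 fell (16.7 and 12.5%, against 9.02 and 10.03% of all tested genes). Sdc4 was higher (680, 648 and 852 against 372, 434 and 517) and Sdc3 lower (-0.32). Within the Wnt pathway Apc, the scaffold that marks beta-catenin for degradation, with 1 match, stood at 7782, 9302 and 9882 against 5880, 5806 and 5699 counts, while the receptor Fzd3 fell (-0.59). That list had 8 falls and 3 rises of 33 (24.2 and 9.09%, with 1 rise under the stricter filter). It had 3 to 5 falls whenever miR29Nestin library 2 or 3 or any miR29WT library was left out.

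Of 30 Polycomb and trithorax genes 4 rose and 1 fell (13.3 and 3.33%, against 9.02 and 10.03% of all tested genes). The 4 rises became 2 without any single library except miR29Nestin library 3. Besides Cbx6, Jarid2, a cofactor of Polycomb complex 2 with 1 match, stood at 616, 718 and 733 normalised counts against 489, 490 and 500. Among histone demethylases and deacetylases 4 of 26 rose and 3 fell (15.4 and 11.5%), with Kdm4b at 1151, 1176 and 1182 against 856, 840 and 872 counts (log2 difference 0.38, limma adjusted p = 4.99e-04). The 3 falls became 1 without miR29Nestin library 1 or 3 or any 1 of the miR29WT libraries, and the 4 rises became 7 with the replicate block. Of 21 genes of microRNA processing and silencing 1 rose and 0 fell (4.76 and 0%). Of 34 neuronal RNA-binding protein genes 4 fell and 0 rose by limma (11.8 and 0%, median -0.11). The falls became 11 with the replicate block or with sex as a covariate, 10 without miR29Nestin library 3, 7 with the stricter filter or median-centred libraries and 2 without miR29WT library 2. Integrin and focal adhesion genes had 6 rises and 1 fall of 20 (30 and 5%, median 0.06). The rises numbered 1 to 3 without miR29Nestin library 2 or 3 or miR29WT library 2 or 3, and 3 with sex as a covariate.

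Glial and vascular lists ranged from 0 called genes in microglia to 6 of 10 tested reactive astrocyte genes. Of 18 microglial genes 0 were called by limma (median -0.03), with 0 higher and 1 lower at an unadjusted p under 0.05. Of 19 endothelial genes 2 rose (10.5%) and 0 fell. Of 11 tested mural cell genes, which mark pericytes and vascular smooth muscle, 2 rose and 1 fell (18.2 and 9.09%). Over all tested genes the shares were 9.02 and 10.03%, near those of the endothelial rises and the mural falls. The summed level of 5 mural markers was 2218 to 2700 normalised counts in miR29Nestin and 2839 to 3030 in miR29WT, without overlap. Rgs5, a pericyte gene, was the marker that fell (1499, 1607 and 1363 against 1941, 2049 and 1842, limma adjusted p = 0.00391), and the other 4 overlapped between the groups. Myelin genes gave 5 rises of 21 (23.8%, median 0.07). The 5 rises became 3 without miR29Nestin library 1 or 2 or miR29WT library 3, and 1 without miR29WT library 2. Mobp stood at 6173, 5870 and 5358 normalised counts against 4404, 4467 and 4884 (limma adjusted p = 0.00398). The summed level of 5 mature oligodendrocyte markers overlapped, at 98473 to 108585 counts against 89879 to 99632, with 2 called higher. The call of Mbp, 1 of these, was lost with quantile normalisation and without miR29WT library 2. The 4 oligodendrocyte precursor markers summed to 2863 to 3020 counts against 2466 to 2655, with 1 called higher. Reactive astrocyte genes split, with 5 rises and 1 fall of the 10 that passed the filter out of 22 (50 and 10%). The 5 rises became 2 without miR29WT library 1. They became 3 without miR29Nestin library 3, without miR29WT library 2 or 3, with the stricter filter or with sex as a covariate. Gfap, the intermediate filament of astrocytes, stood at 3157, 2763 and 2845 against 1859, 2049 and 1941 (log2 difference 0.54), whereas the protease inhibitor Serpina3n, another gene of reactive astrocytes, stood at 194, 234 and 235 against 772, 714 and 723 (3.33-fold lower, log2 difference -1.24). The astrocyte gap junction gene Gjb6 rose (0.64), and the summed level of 5 astrocyte markers overlapped, at 11347 to 11635 against 10815 to 11684 counts. Of these 5 markers, Gjb6 among them, 2 were called higher and 1 lower. Of 13 tested genes of MHC class I and the interferon response, out of 24, 5 rose and 0 fell (38.5 and 0%). The rises numbered 2 or 3 without miR29Nestin library 2 or any 1 of the miR29WT libraries. Ifi27 stood at 332, 296 and 273 against 175, 153 and 151 counts. H2-D1 (0.34) has near-identical copies and is uncertain.

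The share of genes that fell rose with the length of the gene, measured as its span on the chromosome. Of 1966 tested genes that span more than 100 kb 387 fell (19.7%) and 154 rose (7.83%), with a median log2 difference of -0.07, whereas of 2682 genes under 10 kb 144 fell (5.37%) and 275 rose (10.3%), with a median of 0.03. The classes between, 10 to 30 kb and 30 to 100 kb, had 6.79 and 11.7% of falls. The order was the same among genes with 0 matches, where 21.1% of 1532 genes over 100 kb fell and 5.46% of 2290 under 10 kb. Among genes over 100 kb with at least 1 match 14.8% fell and 13.1% rose. Slit2, Mef2c and Adcy1, with spans of 325, 163 and 115 kb, belong to the long falling genes, and Adamts17, with 313 kb, is a long gene that rose. The count of long falling genes was 239 without miR29WT library 2 and 227 without miR29WT library 3, and that of short falling genes 93 without miR29Nestin library 2 and 84 without miR29WT library 2. These shares carry no test, and the part of cell type in them was not tested.

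**Figure D5:**
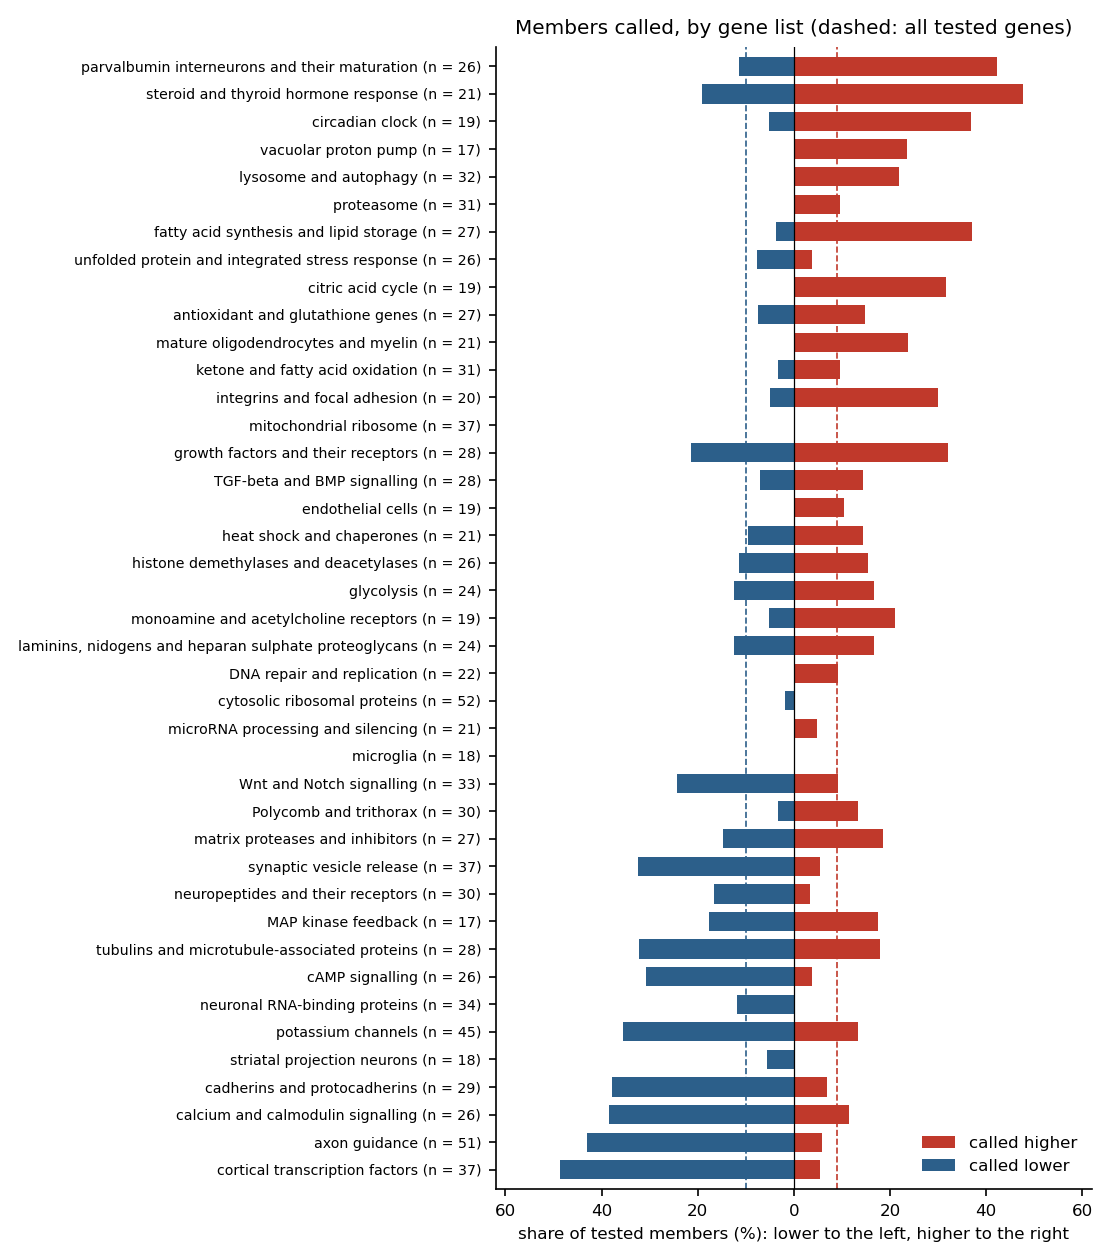
Bars give, for each list with at least 17 tested members (n in brackets), the share of members called higher (right) and lower (left) in miR29Nestin, ordered by the median log2 difference of the list; dashed lines mark the 9.02% and 10.03% of all tested genes. Interneuron and hormone-response lists reach 42.3 and 47.6% of rises, and cortical transcription factors and axon guidance genes 48.6 and 43.1% of falls.

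The floxed loci were made in 129/SvEv-derived cells, so genes beside them can differ by strain of origin as well as by deletion; this cannot be told apart here. Within 5 Mb of the chromosome 6 cluster 7 of 46 tested genes rose and 5 fell, and within 5 Mb of the chromosome 1 cluster 4 of 27 rose and 5 fell, shares of 15.2 and 10.9% and of 14.8 and 18.5%, against 9.02 and 10.03% of all tested genes. Over the whole of chromosome 6, 65 of 604 tested genes rose and 61 fell (10.8 and 10.1%). Over the whole of chromosome 1, 63 of 685 rose and 103 fell (9.2 and 15%). Besides the transcripts at the clusters, the called genes within 5 Mb included Klhdc10 (log2 difference 0.48, limma adjusted p = 7.59e-05) on chromosome 6. On chromosome 1 they included Hsd11b1, which regenerates active glucocorticoid inside cells (193221634 to 193264075, log2 difference 0.63, limma adjusted p = 0.00201), and Plxna2, given above among the guidance receptors.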

How the data were processed

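Polyadenylated RNA of P40 cortex was extracted with an RNeasy kit and made into TruSeq stranded libraries, per the labels' protocols. Trimming, alignment and quantification tools (cutadapt, STAR and Salmon) and DESeq2 are named in the submitters' processing notes, as are the builds hg19 and mm9, all without a version or a role. The authors deposited log2 values from the variance-stabilising transformation of DESeq2, in 1 table of 24444 genes for these 6 libraries.

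Normalised counts were obtained by solving the transformation for the count, with 6.59 on the log2 scale standing for 0 reads. In the 6 libraries 83.0 to 87.4% of low values then fell within 0.05 of a whole read, and size factors were 0.770 to 1.20. The deposited values were tested with limma 3.58.1 in R 4.3.3 (linear model, empirical Bayes with mean-variance trend, Benjamini-Hochberg over all genes tested). A gene entered the test when its mean lay 1 or more above the lowest value, about 48.0 normalised counts, and the threshold was an adjusted p of 0.05. The procedure was tested on simulated data. Seed matches were sought in the longest annotated 3′ UTR of each gene in GENCODE M21 (GRCm38). Of the symbols 23793 were found there as written, 284 by a synonym, and 367 were not found. Gene coordinates come from that annotation, since no file states the build of the deposited table. Summaries were made in Python 3.11.15.

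The comparison, the 48 gene lists (1314 entries, with 40 genes in more than 1 list) and the settings were chosen with earlier results of these data known. By rule the text names genes from the 15 rises and 15 falls with the smallest p and the 10 of each with the largest ratio of means, all with groups that do not overlap. It also names up to 4 members of each list by p, the 10 rises with the most seed matches, every fall with 3 or more, Dnmt3a, the transcripts at the clusters and the cell type markers. Further list members (such as Nfia, Efna2, Thrb, Nr3c1 and Arntl), Klhdc10 and Hsd11b1 were chosen after their values were seen, as was the window of 5 Mb around the clusters.

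The groups share replicate numbers in the labels. Deviations of same-numbered libraries from their group means correlated over genes at 0.335, 0.204 and 0.186. Those of differently numbered libraries correlated at -0.327 to 0.178, the highest being miR29Nestin library 3 with miR29WT library 2. The main fit treated the samples as unpaired, and a fit with the number as a block was run as an alternative. The other alternatives were a stricter filter (mean 2 or more above the lowest value) or none, a robust variance prior, no trend, sex as a covariate, median-centred or quantile-normalised libraries, log2 of counts plus 1, the UTR of the principal transcript, and leaving out each library. Some members of the lists are not reported here by name, and the sum of excitatory neuron markers leaves out 1 of them.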

Additional observations from a re-analysis of the deposited data

How the results depend on the processing

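Leaving out single libraries moved the counts of calls by more than 1.5 times. Over the 6 such fits the called genes numbered 1384 to 2313, with 666 to 1019 higher and 718 to 1294 lower. Rises with 0 seed matches numbered 421 to 685, falls of genes over 100 kb 227 to 467, and falls of genes under 10 kb 84 to 137. The lowest counts came without miR29WT library 2 or 3 or miR29Nestin library 2. Over the 15 alternative fits 35.4 to 47.7% of genes with 3 or more matches rose against 4.31 to 9.84% with 0 matches, and 11.5 to 27.1% of genes over 100 kb fell against 3.13 to 7.16% of those under 10 kb. With the replicate number as a block 3037 genes were called (1409 higher and 1628 lower), and the block ended 0 of the 213 calls among the 275 genes of the naming rule; where the block moved a list count above 2 by over 1.5 times, the value stands beside that count. Of these 213 calls 157 held in every alternative fit that tested the gene, 56 were lost in at least 1, and 0 changed sign. Genes below the stricter filter, about 216 normalised counts, were not refitted there and count as held in that fit. Depth limits genes under about 48.0 normalised counts, which were not tested, and 3 libraries a group limit the small differences.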
